A study of Homo sapiens with 12 samples.

Results

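The genes described here encode the proteins of the cytosolic ribosome. They are the loci of the deposited expression table whose symbol is RPL or RPS followed by a number (with or without a closing A or X), together with RPLP0, RPLP1, RPLP2 and RPSA. The rule found 72 of the 15822 loci, 43 encoding proteins of the large (60S) subunit and 29 encoding proteins of the small (40S) subunit, and all 72 passed the filter on low values. The rule uses symbols and no measured value. The mitochondrial ribosome, whose proteins are encoded by other genes, is not among them.

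Ribosomal proteins are made in equimolar amounts, and protein left without a partner is degraded. Their messenger RNAs belong to the most abundant of growing cells. Most begin with a C followed by a run of pyrimidines, the 5' terminal oligopyrimidine (TOP) motif, through which the mTOR kinase pathway and the RNA-binding protein LARP1 control their translation, so that protein output can change with no change in transcript level. In liver, ribosome supply sets the capacity for making secreted proteins such as albumin. Loss of 1 copy of some of these genes causes Diamond-Blackfan anemia.

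Total RNA of HepaRG cells was sequenced. HepaRG, a line from a human liver tumour, can differentiate into cells resembling hepatocytes and bile duct cells. WT cells and hCAR-KO cells (KO), in which the gene of the nuclear receptor CAR (NR1I3) was disrupted, received DMSO as the solvent control, PB (phenobarbital, a drug that activates CAR indirectly) or CITCO (a synthetic agonist of human CAR). There were 6 groups, WT DMSO, WT PB, WT CITCO, KO DMSO, KO PB and KO CITCO, with 2 libraries each and 12 in all. Doses, exposure times, the way NR1I3 was disrupted and whether the KO line is 1 clone are not stated in the sources used here, so the loss of CAR cannot be told apart from any other difference between the lines. The labels do not say that duplicates came from separate cultures, so the p-values reflect the spread between libraries and that spread may be purely technical.

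Values are normalised signal, that is reads per 1000000 reads after the authors' library normalisation. Libraries held 49258123 to 66453415 reads, and the least sequenced of the 72 transcripts had 4841 reads in its lowest library. As a check on the labels, NR1I3 transcript did not differ between KO DMSO and WT DMSO (log2 difference -0.12 ± 0.087 SE, limma adjusted p = 0.273), which does not bear on the protein, whereas CYP2B6, the classical CAR target, was 4.64 log2 units lower in KO CITCO than in WT CITCO (adjusted p = 4.37e-20). With CITCO, CYP2B6 rose by 3.55 in WT and 0.78 in KO cells, but with PB it rose by 3.60 in WT and 4.50 in KO cells, a difference of 0.90 (adjusted p = 6.65e-06). Albumin took 10.6 to 11.8% of the signal of WT libraries and 4.41 to 4.82% of KO libraries. Scaling each library to its own total, called total scaling below, shifts the genotype difference, as a median over the 15792 loci tested, from about 0 to 0.25 under DMSO, 0.24 under PB and 0.23 under CITCO on the log2 scale. Genotype differences of the genes described are therefore given on both scales. In 2 libraries, the first of WT DMSO and the first of WT PB, transcripts rich in G and C stood below their duplicate, ribosomal and other transcripts alike. Duplicates of KO PB and KO CITCO had weaker relations of the opposite sign, given below. Counts of calls are given with and without the first WT DMSO and first WT PB libraries, as are the differences whose call changes when these 2 libraries are left out.

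Short stretches of DNA around the annotated transcription starts show what the group has in common in sequence. The windows below are those of genes on which the later comparisons turn, with 15 bases before the RefSeq gene start and 15 from it on (GRCh38.p14, RefSeq, 5' to 3' on the gene's strand). Capitals mark the run of at least 5 C or T beginning with C that lies nearest to the start, within 10 bases. The RefSeq start is the outermost annotated one, and these data do not show which start the cells used.
RPS21, chr20:62387088-62387117, plus strand: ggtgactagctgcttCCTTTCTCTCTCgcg
RPL4, chr15:66504841-66504870, minus strand: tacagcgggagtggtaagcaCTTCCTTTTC
RPLP0, chr12:120201097-120201126, minus strand: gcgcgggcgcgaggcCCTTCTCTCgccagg
RPS24, chr10:78033848-78033877, plus strand: cggcgaatcgtggttCTCTTTTCCTCCTTg
RPS26, chr12:56041903-56041932, plus strand: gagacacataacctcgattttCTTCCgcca
RPL15, chr3:23916530-23916559, plus strand: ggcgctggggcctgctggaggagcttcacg
RPS27, chr1:153990747-153990776, plus strand: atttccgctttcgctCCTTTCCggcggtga
RPL31, chr2:101002274-101002303, plus strand: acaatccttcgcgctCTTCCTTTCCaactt

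RPS21, RPLP0, RPS24, RPS27 and RPL31 begin the run at the annotated start itself. In RPL4 and RPS26 it lay a few bases downstream, the run of RPL4 goes on past the window, and RPL15 has no such run in its window. RefSeq start sequences were matched for 58 of the 72 genes. A run at the start itself was found in 39 of these 58 (67.2%), against 4.60% of the 15843 genes of the RefSeq table, which hold the 58. A C at the start was found in 74.1% against 11.3%. In the 300 bases around the start, searched on both strands with overlaps between motifs allowed, the ETS-type motif CCGGAAG was found in 31.0% against 14.2% of all genes, the YY1-type motif AAGATGG in 12.1% against 6.40%, and the TATA box TATAAA in 8.62% against 9.63%. These are matches of letters and not measured binding sites.

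The 72 transcripts together made up 2.61 to 2.89% of the signal in WT libraries and 3.01 to 3.19% in KO libraries. Their order between the genotypes turned with the scale. As a share of each library's total, every KO library stood above every WT library. In the deposited scaling the summed signal was 29036 ± 543 (mean ± SD, n = 2) in WT DMSO and 27625 ± 7.04 in KO DMSO, and it was 30309 ± 462 in WT PB and 29558 ± 148 in KO PB. Under CITCO it was 30764 ± 287 in WT and 28548 ± 281 in KO. Within each genotype, the DMSO libraries stood below those of PB and of CITCO on both scales, except that the second WT DMSO and the first WT PB library were equal at 2.69% of the total. The ratio of summed 60S to summed 40S signal, which no library scaling changes, was 1.51 to 1.55 in WT libraries and 1.57 to 1.59 in KO libraries, ranges that did not overlap. Sums are weighted by the most abundant genes. Taken by gene in the deposited scaling, the median KO minus WT log2 difference under DMSO was -0.07 for 60S and -0.11 for 40S genes. Under PB these medians were -0.05 and -0.05, and under CITCO -0.11 and -0.10, so the subunits did not differ the same way throughout. In these bulk samples, fewer cells of a type and less RNA per cell cannot be told apart.

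**Figure D1:**
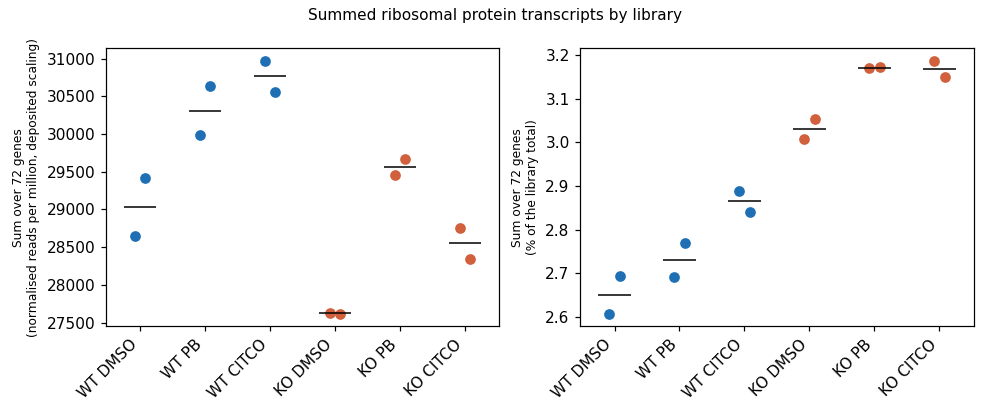
Summed normalised signal of the 72 ribosomal protein transcripts in each of the 12 libraries (points; lines are group means), in the deposited scaling on the left and as a percentage of the library total on the right. KO libraries lie lower than WT libraries of the same treatment on the left and above all WT libraries on the right (3.01 to 3.19% against 2.61 to 2.89%); axes do not start at 0.

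Among single genes, mean signal over the 12 libraries was highest for RPLP0 (1089), RPL3 (1031), RPL4 (827), RPL7 (741) and RPL41 (736), and lowest for RPS26 (122), RPS29 (154), RPS15 (158), RPL36 (164) and RPS28 (181). Signal was not divided by transcript length, so these are read yields and not a ranking of molecules. Across the 6 groups the means of RPL35A spanned 0.067 log2 units and those of RPL10A 0.076, the narrowest spans. RPS2 (0.68), RPS21 (0.64), RPL15 (0.54), RPL4 (0.48) and RPLP0 (0.45) had the widest. Those wide spans came mostly from genotype, as described next.

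KO cells had a different balance of ribosomal protein transcripts from WT cells: RPL15, RPLP0, RPS26, RPL6, RPS24, RPL27A and RPS4X were higher, and RPS21, RPS2 and RPL4 were lower, under all 3 treatments and on both scales. Under DMSO, 44 of the 72 passed the test in the deposited scaling (limma, Benjamini-Hochberg adjusted p under 0.05), 8 higher and 36 lower in KO, where 57.7% of all loci tested passed, 28.3% higher and 29.4% lower. Total scaling gave 58 higher and 4 lower, against 52.5% and 14.6% of all loci. The median difference of the 72 was -0.11 against 0.00 for all loci in the deposited scaling, and 0.16 against 0.25 under total scaling, so that it lay below the median of all loci on both. Under PB, 39 passed, 10 higher and 29 lower, where 58.3% of all loci passed, 29.4% higher and 28.9% lower. On total scaling these were 57 and 4, against 51.6% and 15.1%. With CITCO, 48 passed, 9 higher and 39 lower, where 59% of all loci passed, 29.3% higher and 29.8% lower. On total scaling these were 44 and 4, against 51.2% and 15.9%. Without the 2 libraries named above, 50 passed under DMSO (7 higher, 43 lower) and 42 under PB (10 higher, 32 lower), and on total scaling 55 were higher and 5 lower under DMSO and 53 and 5 under PB. In the deposited scaling 43 of the 44 calls under DMSO and 35 of the 39 under PB were kept without them, none turned direction, and 7 were gained under each.

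These 3 comparisons share no library. In the deposited scaling, 7 genes (9.72%) were higher in KO in all 3, where 22% of all loci were, and 24 (33.3%) were lower in all 3, where 22.3% of all loci were. A further 14 (19.4%, against 26.7% of all loci) passed in none, and no gene passed in opposite directions. With total scaling, 41 were higher in all 3 and 3 lower, against 42.4% and 11.1% of all loci. The 7 and the 3 that passed on both scales are the 10 genes named above.

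**Figure D2:**
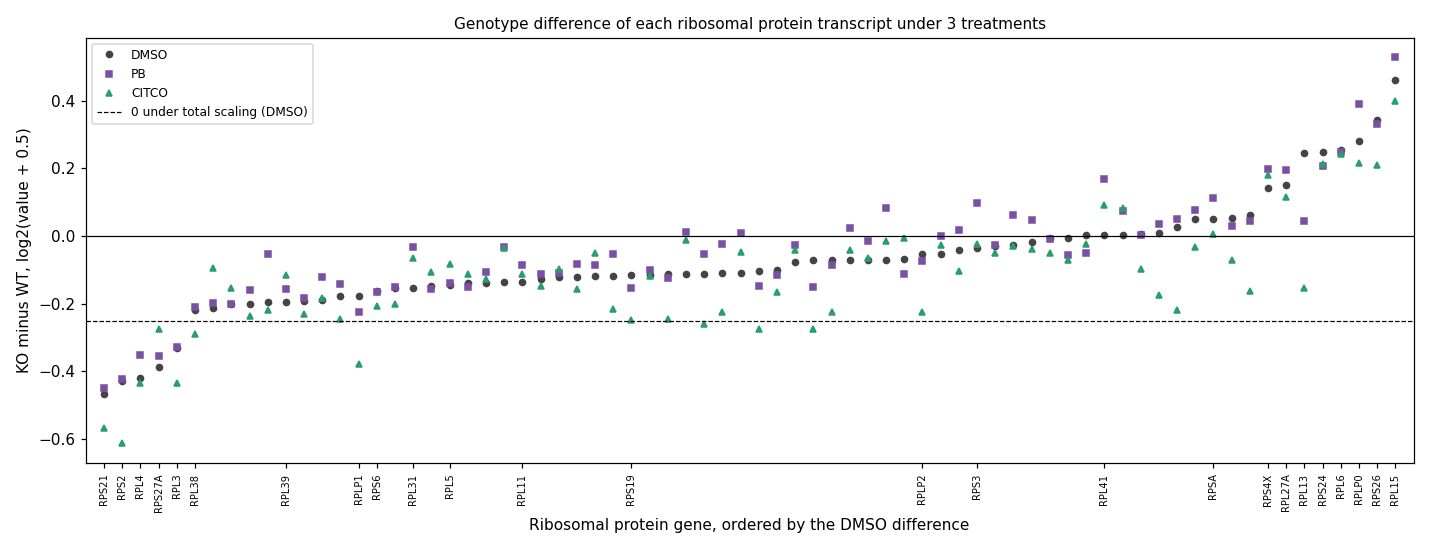
KO minus WT difference of each of the 72 transcripts on the log2(value + 0.5) scale in the deposited scaling, under DMSO (circles), PB (squares) and CITCO (triangles), ordered by the DMSO difference, with the genes described in the text named. The dashed line marks where 0 lies under total scaling for DMSO; RPS21, RPS2 and RPL4 lie below both lines and RPL15 is highest at 0.46, 0.53 and 0.40.

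Among 60S proteins, RPL15, a protein of the large-subunit core, differed most under DMSO and PB, while under CITCO RPL4 and RPL3 lay further from 0 in the deposited scaling. In WT libraries RPL15 stood at 479 and 486 under DMSO, 476 and 496 under PB and 507 and 511 under CITCO, and in KO libraries at 656 and 673, 699 and 704 and 675 and 667. All KO values lay above all WT values. The KO minus WT difference of RPL15 was 0.46 under DMSO, 0.53 under PB and 0.40 under CITCO (SE 0.033 each; adjusted p = 1.08e-09, 1.43e-10 and 8.21e-09). Total scaling gave 0.73, 0.78 and 0.65.

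The 60S stalk, made of RPLP0 and dimers of RPLP1 and RPLP2, recruits elongation factors to the ribosome. Its 3 transcripts did not move together. In WT libraries RPLP0 stood at 924 and 956 under DMSO, 954 and 1009 under PB and 1002 and 1020.4 under CITCO, and in KO libraries at 1151 and 1133, 1294 and 1275 and 1174 and 1176. All KO libraries exceeded all WT libraries. The KO minus WT difference of RPLP0 was 0.28 under DMSO, 0.39 under PB and 0.22 under CITCO (SE 0.033 each; adjusted p = 1.04e-06, 1.32e-08 and 2.19e-05). Total scaling gave 0.55, 0.64 and 0.47. In WT libraries RPLP1 stood at 338 and 374 under DMSO, 356 and 409 under PB and 421 and 372 under CITCO, and in KO libraries at 295 and 335, 327 and 326 and 300.2 and 309. Here the order was the opposite, with all KO values below all WT values. The KO minus WT difference of RPLP1 was -0.18 under DMSO, -0.22 under PB and -0.38 under CITCO (SE 0.069 each; adjusted p = 0.0362, 0.00955 and 0.000134), but under total scaling none of the 3 differences passed (0.09, adjusted p = 0.294; 0.03, adjusted p = 0.76; -0.12, adjusted p = 0.14), so its direction holds in the deposited scaling alone. For RPLP2 the genotypes overlapped, between 231 and 293 for WT and between 241 and 257 for KO, which was lower under CITCO (-0.23, adjusted p = 0.0174) but did not pass under DMSO (-0.05, adjusted p = 0.581) or PB (-0.07, adjusted p = 0.44); total scaling turned these to 0.03 (adjusted p = 0.784), 0.21 (adjusted p = 0.0262) and 0.18 (adjusted p = 0.0569). Without the first WT DMSO and first WT PB libraries RPLP2 was lower in KO under DMSO (-0.20, adjusted p = 0.000416) and PB (-0.21, adjusted p = 0.000221), and total scaling then gave 0.06 under DMSO (adjusted p = 0.198).

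Proteins that line the peptide exit tunnel include RPL4, and RPL31 and RPL39 lie at or near the tunnel's exit. In WT libraries RPL4 stood at 926 and 911 under DMSO, 966 and 947 under PB and 962 and 937 under CITCO, and in KO libraries at 690.4 and 682, 744 and 756 and 699 and 705. No KO library reached the lowest WT library. The KO minus WT difference of RPL4 was -0.42 under DMSO, -0.35 under PB and -0.43 under CITCO (SE 0.031 each; adjusted p = 1.69e-09, 1.87e-08 and 1.12e-09). Total scaling left it lower in KO, by smaller amounts (-0.16, -0.10 and -0.18, each passing). RPL39 ranged from 221 to 239.9 in WT and from 196 to 218 in KO libraries, without overlap, and was -0.19 under DMSO (adjusted p = 0.00119), whereas total scaling gave 0.07 (adjusted p = 0.16), or 0.11 (adjusted p = 0.0333) without the 2 libraries. RPL5 and RPL11, which carry the 5S ribosomal RNA and bind the p53 regulator MDM2 when ribosome assembly is disturbed, were -0.14 (adjusted p = 0.00465) and -0.13 (adjusted p = 0.00696) under DMSO. Total scaling turned these to 0.12 (adjusted p = 0.0106) and 0.13 (adjusted p = 0.00687).

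RPL6 and RPL27A were the other 60S genes higher in KO on both scales. RPL6 ranged from 543 to 571 in WT libraries and from 650.0 to 679 in KO libraries. Its difference was 0.25 under DMSO, 0.25 under PB and 0.24 under CITCO (total scaling 0.52, 0.50 and 0.49). RPL27A ranged from 273 to 302 in WT and from 314 to 341 in KO libraries, again without overlap, and its differences were 0.15, 0.19 and 0.12 (adjusted p = 0.0044, 0.000508 and 0.0217), or 0.41, 0.45 and 0.37 on total scaling. RPL3, which lies close to the peptidyl transferase centre, showed the opposite order, 1105 to 1199.8 in WT and 875 to 946 in KO libraries. Its differences were -0.33, -0.33 and -0.43, and under total scaling the first 2 did not pass (-0.06, adjusted p = 0.112; -0.07, adjusted p = 0.0685) while that under CITCO did (-0.18, adjusted p = 0.000213). Without the 2 libraries both passed (-0.09, adjusted p = 0.0398; -0.11, adjusted p = 0.0113). RPL38, a small surface protein, was -0.22, -0.21 and -0.29 in the deposited scaling, and 0.05 (adjusted p = 0.44), 0.04 (adjusted p = 0.483) and -0.04 (adjusted p = 0.533) under total scaling. RPL41, the shortest ribosomal protein, passed under PB (0.17, adjusted p = 0.000602) and CITCO (0.09, adjusted p = 0.0348) and was 0.00 under DMSO (adjusted p = 0.947), while under total scaling it was higher in KO in all 3 (0.42, 0.35 and 0.27).

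RPL13 passed under DMSO only, at 0.25 higher in KO (adjusted p = 0.0281). In WT libraries RPL13 stood at 331 and 419.8 under DMSO, 405 and 479.5 under PB and 497 and 470.0 under CITCO, and in KO libraries at 403 and 484, 453 and 456 and 437 and 431. Its 2 WT DMSO libraries differed from each other by more than the genotypes did under PB or CITCO. Without the first WT DMSO and first WT PB libraries the difference was 0.07 (adjusted p = 0.343), and it was 0.04 under PB (adjusted p = 0.701) and -0.16 under CITCO (adjusted p = 0.154). Total scaling gave 0.51, 0.30 and 0.10, the last not passing (adjusted p = 0.38).

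Among 40S proteins, RPS2 lies at the entry of the messenger RNA channel and is needed for accurate decoding. In WT libraries RPS2 stood at 704 and 816 under DMSO, 789 and 898 under PB and 908 and 894 under CITCO, and in KO libraries at 537 and 589, 627 and 630.2 and 598 and 579.9. KO values lay below all WT values. The KO minus WT difference of RPS2 was -0.43 under DMSO, -0.42 under PB and -0.61 under CITCO (SE 0.061 each; adjusted p = 8.52e-06, 1.04e-05 and 1e-07). Total scaling gave -0.16 (adjusted p = 0.0316), -0.17 (adjusted p = 0.0274) and -0.36 (adjusted p = 9.02e-05). Without the first WT DMSO and first WT PB libraries the DMSO and PB differences were larger, -0.54 and -0.51 in the deposited scaling.

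RPS21, a small 40S protein, had the lowest difference of all 72 under DMSO and PB. In WT libraries RPS21 stood at 221 and 246 under DMSO, 238 and 265 under PB and 267 and 259 under CITCO, and in KO libraries at 171 and 166, 184 and 184 and 177 and 178. The genotypes did not overlap. The KO minus WT difference of RPS21 was -0.47 under DMSO, -0.45 under PB and -0.57 under CITCO (SE 0.052 each; adjusted p = 4.81e-07, 7.24e-07 and 3.59e-08). Total scaling gave -0.20, -0.20 and -0.32, all passing.

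RPS27A is made as a fusion with ubiquitin, which is split off to join the cell's ubiquitin pool. It ranged from 394 to 413 in WT and from 303 to 337 in KO libraries, without overlap. Its differences were -0.39, -0.36 and -0.28 (adjusted p = 3.97e-08, 1.16e-07 and 3.17e-06). Under total scaling those for DMSO and PB still passed (-0.12 and -0.10) and that for CITCO did not (-0.02, adjusted p = 0.577). RPS6, the S6 kinase substrate, ranged from 728 to 772 in WT and from 653 to 688 in KO libraries. It was -0.16, -0.17 and -0.21, and total scaling turned the DMSO and PB values to 0.10 (adjusted p = 0.00664) and 0.09 (adjusted p = 0.0209), the latter 0.06 (adjusted p = 0.122) without the 2 libraries. RPS19, the gene most often mutated in Diamond-Blackfan anemia, was -0.12, -0.15 and -0.25 (adjusted p = 0.0361, 0.00803 and 0.000146), and total scaling gave 0.15 (adjusted p = 0.00716), 0.10 (adjusted p = 0.0589) and 0.01 (adjusted p = 0.921).

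RPS26, RPS24 and RPS4X were the 40S genes higher in KO. RPS26, which contacts messenger RNA upstream of the start codon, ranged from 103 to 116 in WT and from 129 to 139 in KO libraries. It differed by 0.34, 0.33 and 0.21 (adjusted p = 4.27e-06, 5.97e-06 and 0.000735), and by 0.61, 0.58 and 0.46 on total scaling. RPS24 ranged from 409 to 476 in WT and from 489.6 to 542 in KO libraries, and differed by 0.25, 0.21 and 0.21 (total scaling 0.51, 0.46 and 0.46). RPS4X, the X-chromosomal copy of the RPS4 gene, ranged from 668 to 719.7 in WT and from 738 to 811 in KO libraries, and differed by 0.14, 0.20 and 0.18 (total scaling 0.41, 0.45 and 0.43). No library of either genotype fell in the range of the other for these 3 genes. RPSA, which also binds laminin as a cell-surface receptor, overlapped between genotypes (464 to 518 in WT, 482 to 525 in KO) and passed under PB alone (0.11, adjusted p = 0.00747). RPS3, a 40S protein with a separate role in DNA repair, was likewise higher in KO under PB (0.10, adjusted p = 0.0356, and 0.07, adjusted p = 0.156 without the 2 libraries) and did not pass under DMSO (-0.03, adjusted p = 0.466). On total scaling both genes were higher in KO under all 3 treatments.

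Several ribosomal protein genes with a large genotype difference lay among other genes that differed the same way. For each of the 72, the median KO minus WT difference of its neighbours was taken. These were the 10 next other loci of the table on each side, by RefSeq positions, with fewer for RPL35A (12 in all), RPL8 (17) and RPS7 (18). Across the 72 genes the 2 quantities had r = 0.55 (Spearman rho = 0.46) under DMSO, 0.62 (0.52) under PB and 0.69 (0.56) under CITCO. All points share the same libraries, and genes are not independent replicates. No such values were worked out for other loci, so the relation is not shown to be particular to these genes. The sign was the same in 43 of 72 genes under DMSO, where 54 of the 72 were below 0. No share for other loci stands beside this count, so it is not read as a result. Total scaling left r at 0.55, 0.62 and 0.69. Under DMSO it put 67 of the 72 above 0 and raised the median of all loci to 0.25. The sign was then the same in 69 genes, a count that this shift makes high wherever a gene lies. Without the 2 libraries r was 0.60 under DMSO and 0.64 under PB. The medians that follow are in the deposited scaling, under DMSO. The neighbours of RPS2 (median -0.31), RPL4 (-0.28) and RPS21 (-0.27) were low, and those of RPL6 (0.62), RPS24 (0.47) and RPLP0 (0.41) were high. Other genes did not follow high neighbours, among them RPL32 (-0.19, neighbours 0.37), RPL10 (-0.07, neighbours 0.32) and RPS6 (-0.16, neighbours 0.28). The 13 genes with neighbours above 0.15 had a median of 0.003, and the 5 with neighbours below -0.15 one of -0.42. The neighbours of RPL15 stood at 0.07 and those of RPS4X at -0.03, near the median of all loci.

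On chromosome 12, chosen after the values were seen, the 4 members (RPL6, RPLP0, RPS26 and RPL41) had a median of 0.27, and the other 639 loci of that chromosome had a median of 0.30. On chromosome 15, chosen in the same way, RPL4 and RPLP1 had a median of -0.30 and the other 423 loci -0.21. All 5 members on chromosome 1 were below 0 (median -0.14) while its other 1298 loci had a median of 0.00. The DNA of the lines was not analysed here.

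**Figure D3:**
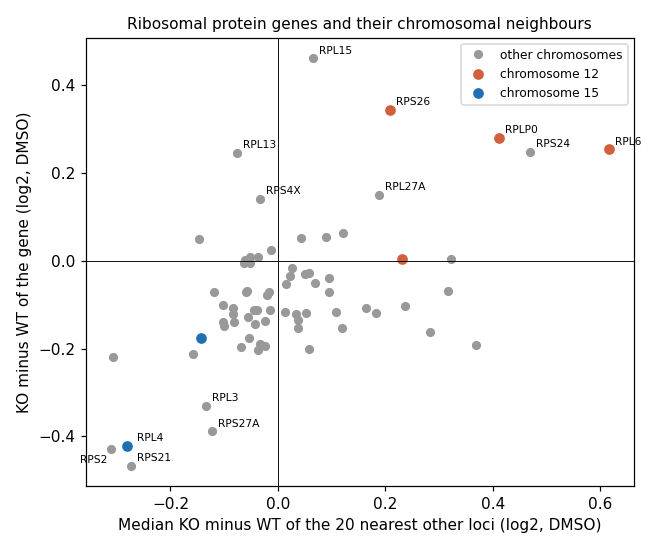
KO minus WT difference (log2, DMSO, deposited scaling) of each of the 72 genes against the median difference of up to 20 neighbouring loci, 10 on each side. Genes on chromosomes 12 and 15 are coloured and the ones discussed are named. RPS2, RPL4 and RPS21 lie low on both axes, RPL6, RPLP0 and RPS24 high on both, and RPL15 is at 0.46 with neighbours at 0.07.

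Ribosomal protein genes have many near-identical processed copies in the genome, and reads may be divided between a gene and its copies by the authors' counting, which makes single levels uncertain. The 69 pseudogene loci of the table held 8.44% of the signal of the 72 genes. Among 31 copies with a parent in the group and a mean of at least 5, 20 had the sign of the parent's genotype difference under DMSO in the deposited scaling, to which the next values also refer. RPL15P3 was higher in KO by 0.47, close to the 0.46 of RPL15, and RPL6P27 by 0.27 next to 0.25 for RPL6. RPS2P5 differed by 0.05 (adjusted p = 0.78) where RPS2 differed by -0.43. RPL39P5 held 52.3% of the signal of RPL39, and it was higher in KO by 0.23 while RPL39 was -0.19, and how reads were assigned between these 2 loci was not tested.

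Along with these differences, markers of cell types differed between the genotypes, and their part in them was not tested. Summed signal of 9 hepatocyte markers ranged from 141158 to 161917 in WT cells and from 60431 to 71614 in KO cells. The 4 biliary markers matched here (KRT7, KRT19, SOX9 and SPP1, of 8 listed) ranged from 377 to 467 for WT and from 104 to 121 for KO. The 6 mesenchymal markers (of 10) ranged from 120.4 to 136 for WT and from 267 to 289 for KO. Single markers went both ways: under DMSO 5 of the hepatocyte markers were lower in KO (among them ALB, -1.55) and 2 higher (CYP3A4, 2.20, and FGB, 0.23), and of the biliary markers KRT19 (-2.27) and SOX9 (-0.92) were lower and SPP1 (1.27) and KRT7 (0.73) higher, with these directions on both scales. Under DMSO the mesenchymal markers TAGLN (2.97), DCN (1.95) and ACTA2 (0.78) were higher in KO on both scales. COL3A1 (-0.41) was lower in the deposited scaling alone, and POSTN and COL1A1 passed, as higher, on total scaling alone. The 3 endothelial markers matched (of 5) summed to 82.2 to 115 for WT and 65.8 to 93.1 for KO. Of these, TEK (1.13) was higher on both scales, KDR (-0.33) lower in the deposited scaling alone, and PECAM1 did not pass. None of the matched markers was at 0 in any group. The leukocyte marker CD14 was the only one of 6 matched and ranged from 3.70 to 7.84 for WT and from 6.05 to 18.8 for KO.

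PB raised some ribosomal protein transcripts of KO cells by small amounts. There, 17 of the 72 passed the test, all higher, where 6.96% of all loci tested passed and 3.87% passed as higher. The difference was above 0 for 71 of the 72, and its median over the 72 was 0.08, against 0.00 over all loci. On total scaling, 8 passed, all higher, against 3.04% of all loci, and the median was 0.05 against -0.03. RPS27, RPS29, RPL31, RPS15A, RPLP0 and RPL41 had the largest change.

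RPS27, a zinc-binding 40S protein, stood at 237 and 261 in the KO DMSO libraries and at 284 and 289.9 in the KO PB libraries. Its change was 0.20 ± 0.043 (SE; adjusted p = 0.00563). RPS29, a neighbour of the messenger RNA channel in the head of the 40S subunit, stood at 137 and 145 under DMSO and at 163 and 158 under PB. For both genes the PB libraries lay above the DMSO libraries. RPS29 changed by 0.19 ± 0.043 (SE; adjusted p = 0.00985).

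RPL31 stood at 271 and 278 in KO DMSO and at 307 and 314 in KO PB, and RPS15A at 344 and 341 and at 385 and 387. The groups did not overlap for either gene. The change of RPL31 was 0.18 ± 0.035 (SE; adjusted p = 0.00308), and that of RPS15A 0.17 ± 0.034 (SE; adjusted p = 0.0034). RPLP0, already higher in KO than in WT cells, went from 1151 and 1133 to 1294 and 1275. This change was 0.17 ± 0.033 (SE; adjusted p = 0.00316). RPL41 went from 722 and 697 to 778 and 809.7, and its change was 0.16 ± 0.036 (SE; adjusted p = 0.00866). Each of the 6 also passed on total scaling, at 0.13 to 0.17, as did RPS3 and RPS18.

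The other 9 that passed in the deposited scaling were RPS12, RPL30, RPL23, RPL7A, RPL21, RPL11, RPL4, RPS4X and RPS20, named because they complete the 17. Among the fixed genes, RPSA (0.11, adjusted p = 0.0502), RPS19 (0.04, adjusted p = 0.767), RPS6 (0.05, adjusted p = 0.414), RPS27A (0.08, adjusted p = 0.279) and RPL5 (0.06, adjusted p = 0.493) did not pass. By subunit the median change was 0.07 for 60S and 0.11 for 40S genes. A pyrimidine run at the annotated start was present in 9 of 13 of the genes that passed and in 30 of 45 of the others with a matched sequence.

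These calls rested on all 4 libraries: leaving out the first or second KO DMSO library left 9 or 7 calls, and leaving out the first or second KO PB library left 5 or 2. Under an alternative in which the spread is not modelled as a trend on expression, 0 passed. The authors' deposited table for this comparison called 6 of the 72, all higher, with 9.36% of its loci called, and all 6 are among the 17. Summed hepatocyte markers were 60431 to 62179 in KO DMSO and 70338 to 71614 in KO PB libraries. Albumin, one of them, went from 4.73 and 4.82% of the signal down to 4.41 and 4.45%. CD14 was 6.13 to 7.23 and 17.6 to 18.8, and summed mesenchymal markers were 267 to 282 and 286 to 289. Lower with PB were the summed biliary markers (120.3 to 121.0 and 107 to 111) and endothelial markers (88.0 to 93.1 and 65.8 to 66.7). The part of these markers in the result was not tested.

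**Figure D4:**
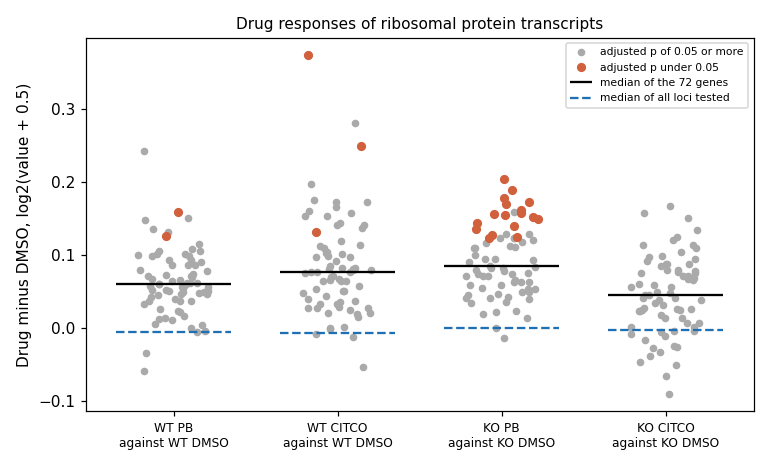
Change of each of the 72 transcripts with PB or CITCO against DMSO in WT and in KO cells (log2(value + 0.5), deposited scaling); coloured points have a limma adjusted p under 0.05, black lines are the median of the 72 and dashed lines that of all loci tested. The medians of the 72 lie at 0.06, 0.08, 0.08 and 0.05, and 17 points are coloured for PB in KO cells.

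In WT cells PB gave 2 calls among the 72, RPS24 and RPL21, both higher, against 6.42% of all loci called and 2.66% called as higher. RPS24 stood at 409 and 419 under DMSO and at 476 and 449 under PB, and its change was 0.16 ± 0.036 (SE; adjusted p = 0.0114). RPL21 stood at 415 and 406 and at 462 and 435, and its change was 0.13 ± 0.037 (SE; adjusted p = 0.0488). Both pairs of libraries were apart. The difference was above 0 for 67 of the 72, with a median of 0.06 against 0.00 for all loci, and 17 had an unadjusted p under 0.05. On total scaling RPS24 alone passed (0.14, adjusted p = 0.02; 2.32% of all loci passed as higher), and the count was 0 without the first WT DMSO and first WT PB libraries, where RPS24 was at 0.10 (adjusted p = 0.218). Leaving out the first WT DMSO library alone also gave 0, and leaving out the second gave 6. edgeR's quasi-likelihood test on the WT reads called 0 and DESeq2 called 1.

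CITCO gave 3 calls in WT cells, RPL13, RPS2 and RPSA, all higher, against 2.2% of all loci called and 1.18% called as higher. On total scaling 8 passed, all higher, against 1.6% of all loci, among them RPL8, RPL29, RPLP0 and RPS24. RPL13 stood at 331 and 419.8 under DMSO and at 497 and 470.0 under CITCO, and its change was 0.37 ± 0.091 (SE; adjusted p = 0.0378). RPS2 stood at 704 and 816 and at 908 and 894, and changed by 0.25 ± 0.061 (SE; adjusted p = 0.0393). For RPSA the values were 464 and 467 and 503 and 518, and the change was 0.13 ± 0.033 (SE; adjusted p = 0.0416).

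All 3 genes lay higher in both CITCO libraries than in both DMSO libraries, but for RPL13 and RPS2 much of the distance came from the first DMSO library. Without it and the first WT PB library none of the 72 passed, and the values were 0.20 for RPL13 (adjusted p = 0.132), 0.14 for RPS2 (adjusted p = 0.101) and 0.13 for RPSA (adjusted p = 0.0723). Leaving out the second WT DMSO library gave 13 calls, leaving out either CITCO library gave 0, edgeR called 0 and DESeq2 called 1. The median change of the 72 was 0.08 with all libraries and 0.06 without the 2, against -0.01 for all loci, with 68 of the 72 above 0 and 33 at an unadjusted p under 0.05.

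Duplicates differed along transcript base composition, most strongly in the WT DMSO and WT PB groups. GC content, the share of G and C in the transcript, was 42.7 to 62.8% over the 72 genes. The difference between duplicates, second minus first, had a correlation across the 72 genes with GC of r = 0.62 in WT DMSO and r = 0.81 in WT PB, but r = -0.03 in WT CITCO and r = 0.01 in KO DMSO. In KO PB it was r = -0.50 and in KO CITCO r = -0.42. Over the 1443 loci with a mean of at least 100, which include the 72, r was 0.68 in WT DMSO, 0.81 in WT PB and -0.03 in WT CITCO. In KO DMSO it was -0.37 there, in KO PB -0.32 and in KO CITCO -0.57. In RPS15, at 126 and 161 in the WT DMSO duplicates, the first library was again the lower. Across the 72 genes, the WT response to CITCO had r = 0.68 with GC, that in KO cells r = -0.43, and the PB responses r = 0.02 in WT and r = -0.17 in KO. The KO minus WT difference had r = 0.06 with GC under DMSO, r = 0.002 under PB and r = -0.36 under CITCO. These are descriptions across genes that share libraries.

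**Figure D5:**
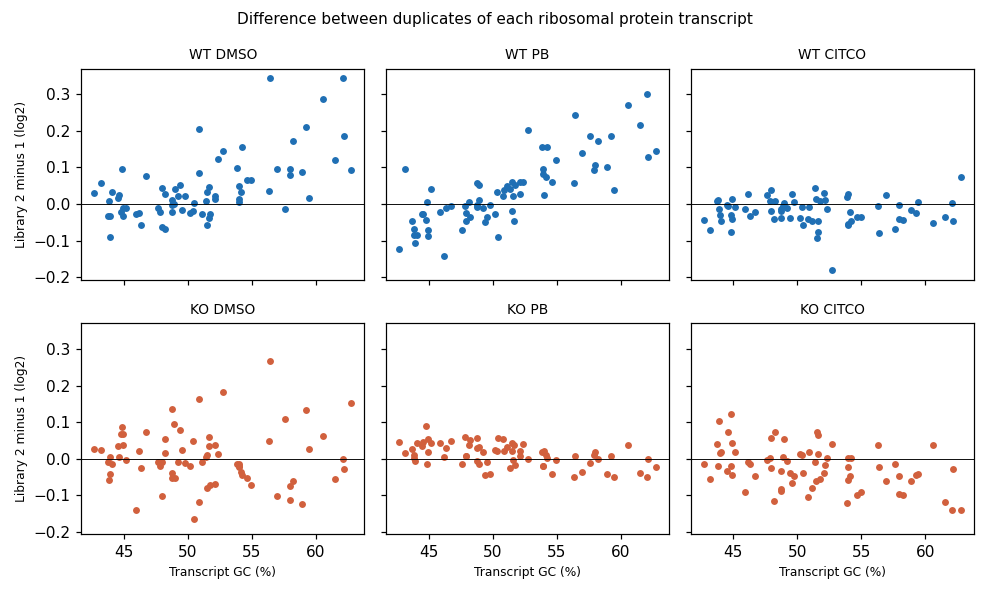
Second minus first duplicate (log2) of each of the 72 transcripts against its GC content, one panel per group. GC-rich transcripts are higher in the second library of WT DMSO (r = 0.62) and WT PB (r = 0.81). The slope is the opposite in KO PB (r = -0.50) and KO CITCO (r = -0.42), and WT CITCO (r = -0.03) and KO DMSO (r = 0.01) show little.

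CITCO in KO cells gave 0 calls by limma against 0.811% of all loci (0.386% as higher), with 20 of the 72 at an unadjusted p under 0.05, all higher. The authors' deposited table also called 0. The median was 0.05 against 0.00 for all loci, and 57 of the 72 were above 0. RPL21 (349 and 359 under DMSO, 388 and 399 under CITCO) was nearest to the threshold at 0.15 (adjusted p = 0.0668), and it passed on total scaling (0.17, adjusted p = 0.0354), where it was the only one of the 72 and 0.538% of all loci passed as higher.

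Direct tests of whether a drug response differed between KO and WT cells gave 0 calls for PB (1.01% of all loci called) and 0 for CITCO (0.336%). For PB, 7 of the 72 had an unadjusted p under 0.05, all with the larger response in KO, and RPL41 had the lowest adjusted p of the 72 (0.17, 95% interval 0.06 to 0.27, adjusted p = 0.209). For CITCO, 2 had the larger and 10 the smaller response in KO at an unadjusted p under 0.05, and the 3 with the lowest p follow, chosen after their values were seen. RPL13 was at -0.40 (95% interval -0.67 to -0.13, adjusted p = 0.215), RPL28 at -0.24 (-0.39 to -0.10, adjusted p = 0.173) and RPS28 at -0.23 (-0.38 to -0.07, adjusted p = 0.215). The differences of CITCO responses had r = -0.72 with GC across the 72 genes, and leaving out the second WT DMSO library gave 4 calls, all lower. A difference between the 17 calls of PB in KO and the 2 in WT was thus not shown for any single gene.

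Genes that build or use ribosomes were compared from fixed lists, which were also written with earlier results of these data known. Their counts for KO against WT under DMSO stand beside 28.3% of all loci higher and 29.4% lower in the deposited scaling, and 52.5% and 14.6% under total scaling. Under DMSO, ribosome biogenesis factors had 15 of 42 higher and 4 lower in KO with a median of 0.11, above the 0.00 of all loci, where the 72 ribosomal protein genes had a median below it. BOP1, which processes the precursor of 60S ribosomal RNA, was higher by 0.78 (adjusted p = 1.65e-07; total scaling 1.04), and the RNA helicase DDX21 by 0.56 (adjusted p = 6.96e-08; total scaling 0.82). WDR12, the partner of BOP1, was lower by -0.34 (adjusted p = 0.000205) and -0.08 on total scaling (adjusted p = 0.277). The list had 21 higher and 4 lower without the first WT DMSO and first WT PB libraries. Total scaling gave 35 higher and 0 lower with a median of 0.37 against 0.25. Under PB the list had 16 higher and 6 lower with a median of 0.12, where 29.4% of all loci were higher and 28.9% lower. With CITCO it had 12 higher and 7 lower with a median of 0.06, where 29.3% and 29.8% of all loci were. The share higher under CITCO was thus close to that of all loci.

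Translation factors had 10 of 41 higher and 14 lower (total scaling 30 and 5), with a median of 0.04, a share called (24 of 41) close to that of all loci. EIF3C, a subunit of the initiation factor that binds the 40S subunit, was at 0.71 (adjusted p = 1.13e-11; total scaling 0.98), and EIF4A2, a helicase that opens messenger RNA, at -0.47 (adjusted p = 1.02e-07; total scaling -0.21). Of 18 TOP messenger RNAs that encode no ribosomal protein, 6 were higher and 7 lower (total scaling 14 and 2). NACA, which binds nascent chains at the tunnel exit, was at 0.28 (adjusted p = 2.07e-05; total scaling 0.54), and TPT1 at -0.79 (adjusted p = 8.11e-13; total scaling -0.52). Genes of the mTOR and MYC pathways had 4 of 17 higher and 5 lower (total scaling 12 and 1), with the mTOR inhibitor DDIT4 at 1.64 (adjusted p = 1.07e-12; total scaling 1.91) and the translation repressor EIF4EBP1 at -0.95 (adjusted p = 1.37e-07; total scaling -0.70). Non-coding hosts of small nucleolar RNAs had 4 of 11 higher and 2 lower (total scaling 8 and 0), with SNHG12 at 0.67 (adjusted p = 0.000402; total scaling 0.91) and SNHG7 at -0.28 (adjusted p = 0.00433), a call that total scaling did not give (-0.02, adjusted p = 0.812).

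For PB in KO cells, where 6.96% of all loci passed (3.87% as higher), these lists had the following calls, and no difference from the 72 was tested: 0 of 42 biogenesis factors, 1 higher and 3 lower of 41 translation factors, 1 of 18 other TOP messenger RNAs, 1 of 11 small nucleolar RNA hosts and 0 of 17 mTOR and MYC genes. EEF1B2, a guanine exchange factor of elongation encoded by a TOP messenger RNA, was the one called as higher in both of the lists that hold it (0.26, adjusted p = 0.000361), and SNHG5 the host (0.20, adjusted p = 0.00367). EEF1A2, the elongation factor isoform of muscle and neurons, was lower (-0.45, adjusted p = 0.000743).

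Ribosome-associated genes whose symbols the rule does not take were few. Of 10, none was higher and 3 were lower in KO under DMSO (total scaling 7 and 1). RPL22L1, the paralog of RPL22, was at -0.49 (adjusted p = 1.41e-06; total scaling -0.22, adjusted p = 0.00294). RPS27L, a p53-regulated paralog of RPS27, was at -0.27 (adjusted p = 0.000332), a call lost on total scaling (adjusted p = 0.988). FAU, which encodes RPS30 fused to a ubiquitin-like protein, was at -0.12 (adjusted p = 0.0413), and total scaling turned it to 0.14 (adjusted p = 0.0139). GNB2L1, which encodes the scaffold RACK1, was at -0.01 (adjusted p = 0.888) and on total scaling at 0.26 (adjusted p = 3.84e-06). RSL24D1 (-0.15), RSL1D1 (-0.09), RPL36AL (-0.08), RPL26L1 (0.02) and RPL7L1 (0.03) did not pass either, and on total scaling the last 4 were higher in KO (0.17, 0.18, 0.28 and 0.29). Each of the 10 had an adjusted p of 0.05 or more for PB in KO cells.

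The authors' own tests called fewer of the 72. For KO DMSO against WT DMSO, the authors' deposited table called 25 of the 72 (7 higher, 18 lower), with 58.6% of its loci called, and all 25 were among the 44 called here. In the authors' deposited tables, the WT comparisons of PB and CITCO with DMSO called 0 of the 72, with 7.76% and 3.38% of their loci called. The authors' deposited tables named for KO PB against WT PB and KO CITCO against WT CITCO called 0 of the 72, with 1.98% and 1.32% of loci called. Fold changes in these last 2 of the authors' deposited tables matched the difference of drug responses between genotypes (median absolute difference over the 72 of 0.001 and 0.0003 log2 units from the values here) and not the KO against WT difference their names give (0.118 and 0.119), so they do not bear on the 39 and 48 genotype calls.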

How the data were processed

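RNA of 12 libraries was aligned and counted by the authors; edgeR 2.12, TopHat2 2.0.10, Cuffdiff 2.1.1, Cufflinks 2.1.1, Bowtie 1.0.0, GRCh38 and GRCh37 are named without roles per the submitters' processing notes. The authors deposited a normalised signal per locus, reads per 1000000 divided by a library factor, since totals exceeded 1000000 in WT and were below it in KO libraries, and values were whole reads within 0.001 reads. The plan had assumed plain CPM. The authors deposited also 7 tables with log2 fold changes, p-values and likelihood-ratio scores, used only as named.

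Loci with at least 1 in at least 2 libraries (15792 of 15822) entered limma 3.58.1 (R 4.3.3) on log2(value + 0.5), with a variance trend and 6 group means over all 12 libraries, which understates changes of low genes. Benjamini-Hochberg adjustment ran over all loci; calls are adjusted p under 0.05. The 9 comparisons were each drug against DMSO per genotype, KO against WT per treatment, and the difference of each drug response between genotypes. Count tests (edgeR 4.0.16, DESeq2 1.42.0) ran on the whole reads of WT libraries. The procedure was tested on simulated data. GC content is the median over GENCODE 29 protein-coding transcripts.

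The members, gene lists and tests were chosen with earlier results of these data known. Named genes were up to 6 called members per direction and comparison with the largest change, the 5 highest and 5 lowest means, the 5 widest ranges, fixed members (RPLP0, RPLP1, RPLP2, RPL5, RPL11, RPL41, RPS4X, RPS6, RPS19, RPS27A, RPSA), and up to 3 per direction of each list. Replicate numbers pair no samples by the labels.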

Additional observations from a re-analysis of the deposited data

How the results depend on the processing

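Scaling decided most of the genotype results: with every library scaled to its total the calls were 62 (58 higher, 4 lower) instead of 44 under DMSO, 61 (57 and 4) instead of 39 under PB and 48 (44 and 4) instead of 48 under CITCO. Of the 72, those lower in KO, called or not, went from 54 to 5 under DMSO, 46 to 5 under PB and 62 to 10 under CITCO. Among the 47 single-gene results with the largest called changes, 2 changed sign, RPL38 under DMSO (0.0452, adjusted p = 0.44) and RPLP1 under PB (0.0267, adjusted p = 0.76). The same scaling gave 1 call for PB in WT, 8 for CITCO in WT, 8 for PB in KO and 1 for CITCO in KO. A prior variance without a trend gave 25 calls under DMSO and 23 under PB for genotype, and 0 for PB in WT, CITCO in WT and PB in KO. Fits of only the groups compared gave 0 for both drugs in WT and 25 for PB in KO, not beyond 1.5 times the 17. A minimum of 5 gave 4 calls for PB in WT. On the WT reads, edgeR called 0 for both drugs and DESeq2 called 1 for each. Without the first WT DMSO and first WT PB libraries, an alternative added after seeing the data, both WT drug counts were 0. Leaving out 1 library at a time gave 0 to 6 calls for PB in WT, 0 to 13 for CITCO in WT, 2 to 9 for PB in KO, 0 to 1 for CITCO in KO, 36 to 43, 29 to 35 and 33 to 39 for genotype under DMSO, PB and CITCO, 0 to 4 for the difference of CITCO responses and 0 for that of PB responses. Pseudocounts of 0.1 and 2 and no filter kept all 47 results on their side of the threshold. With the replicate number as a block, PB in WT gave 1 call, CITCO in WT 2 and PB in KO 16; same-numbered libraries correlated at -0.08 to 0.29 over 15 pairs of groups, 4 above 0.1, so the numbers are not taken as pairs. The least sequenced of the 72 had 4841 reads in its lowest library, and no test of depth or of more libraries was made.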

Other observations

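Lists for 2 other multi-subunit machines of the cell were counted in the KO against WT comparison under DMSO, where 28.3% of all loci were higher and 29.4% lower (total scaling 52.5% and 14.6%), and no difference between lists was tested. Of 75 mitochondrial ribosomal protein genes, 7 were higher and 32 lower in KO (total scaling 33 and 8). Their median of -0.11 was close to that of the 72 cytosolic genes under DMSO with all libraries only. Under PB and CITCO it was -0.17 and -0.19, further below 0 than the -0.05 and -0.11 of the 72. Under DMSO without the first WT DMSO library and the first WT PB library, 6 were higher and 36 lower. The median was then -0.20, against -0.12 for the 72. MRPL46 was at -0.64 (limma adjusted p = 8.26e-07; total scaling -0.39) and MRPL42 at 0.54 (adjusted p = 6.2e-07; total scaling 0.81). All 12 mitochondrially encoded transcripts were lower (total scaling 11 of 12). Of 40 proteasome genes, 12 were higher and 4 lower (total scaling 33 and 2), with a median of 0.04. PSMD9, an assembly chaperone of the regulatory particle, was at 0.69 (adjusted p = 1.02e-07; total scaling 0.95), and PSME2 and PSME1, the subunits of the interferon-inducible activator, were at -0.76 (adjusted p = 4.64e-10; total scaling -0.49) and -0.55 (adjusted p = 2.32e-09; total scaling -0.28). For PB in KO cells, where 6.96% of all loci passed, 0 of 75 mitochondrial ribosomal protein genes passed and 3 of 40 proteasome genes were higher, PSME2 at 0.26, PSMA5 at 0.20 and PSMB2 at 0.18.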
